A study of Mus musculus with 4 samples.

Results

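Expression of 6 genes that encode myeloid checkpoint receptors or their ligand, Sirpa, Cd47, Pira2, Pirb, Lilrb4a and Siglec1, was examined in single cells of 2 mouse tumour models. The genes were chosen by name, and all 6 were among the 13071 genes of a table that joined an LLC and a B16 library, and among the 12996 genes of a monocyte and macrophage table that joined 3 libraries. LLC is a Lewis lung carcinoma line and B16 a melanoma line, and both were grown under the skin of mice, with tumours of 3 mice pooled for each sample. The LLC library came from mice of the genotype F11r fl/fl LysM-Cre-, which carry a floxed F11r gene and lack the Cre recombinase that LysM drives in myeloid cells. A CITE-seq LLC library, in which antibody-linked tags were read beside RNA, and the B16 library came from C57BL/6J mice. Each group was therefore 1 library of 10x Genomics single-cell RNA sequencing, and LLC and B16 differed in tumour, mouse strain and library at once, which cannot be told apart.

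With 1 library per group there was no test between tumours, and no p-value is given. All intervals are exact 95% intervals that cover counting error only. The joint table held 13021 LLC cells and 6870 B16 cells, with medians of 6174 and 8315 UMIs (unique molecular identifiers, which count captured RNA molecules) per cell. The monocyte and macrophage table held 8155 LLC, 10131 CITE-seq LLC and 2297 B16 cells, with medians of 6530, 4546 and 9250 UMIs. All 8155 LLC cells and 2296 of the 2297 B16 cells of that table were also in the joint table, so the tables are not independent. Pairs of libraries shared between 5 and 29 cell barcodes. Cell names are the authors' deposited annotation, and names of TAM (tumour-associated macrophage) clusters do not carry over from one table to the other.

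SIRPα, the product of Sirpa, is a receptor of macrophages and other myeloid cells with inhibitory ITIM motifs, and it is known for restraining phagocytosis when it binds CD47 on another cell. The paired immunoglobulin-like receptors bind MHC class I: PIR-B (Pirb) carries ITIMs and inhibits, and PIR-A proteins such as that of Pira2 activate through an adaptor chain. Lilrb4a encodes the inhibitory receptor gp49B, and Siglec1 encodes CD169 (sialoadhesin), a lectin of macrophages that binds sialic acid and has no ITIM.

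In the mm10 build with GENCODE vM21 gene models, Sirpa lies on chromosome 2 at 129592835 to 129632228 on the plus strand and Siglec1 at 131069220 to 131086765 of the same chromosome on the minus strand. Cd47 lies on chromosome 16 at 49800533 to 49915010 on the plus strand. Lilrb4a lies on chromosome 10 at 51490956 to 51496611 on the plus strand, beside its near copy Lilr4b at 51480632 to 51486703. Pirb (3711409 to 3720391) and Pira2 (3836812 to 3845051) lie on the minus strand of chromosome 7, with the near copies Gm15448, Gm14548 and Lilra6 between 3816781 and 3915503.

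The 5′ ends of the paired receptors are shown because the results turn on how far their counts belong to 1 gene. The first 60 coding bases of each follow, 5′ to 3′, where capitals mark bases that differ from Pira2 in the first set and from Lilrb4a in the second.
Pira2: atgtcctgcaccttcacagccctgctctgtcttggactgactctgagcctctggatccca
Gm15448: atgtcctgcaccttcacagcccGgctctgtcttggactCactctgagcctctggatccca
Pirb: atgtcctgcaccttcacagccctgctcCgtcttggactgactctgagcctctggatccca
Lilrb4a: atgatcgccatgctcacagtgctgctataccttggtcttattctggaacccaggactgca
Lilr4b: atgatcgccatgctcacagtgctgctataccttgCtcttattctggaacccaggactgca

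Gm15448 differed from Pira2 at 2 of these 60 bases, Pirb at 1, and Lilr4b from Lilrb4a at 1. Over all aligned columns of the coding sequences, gaps included, identity to Pira2 was 97.9% for Gm14548, 96.1% for Gm15448, 93.4% for Lilra6 and 77.2% for Pirb. The coding sequence of Pirb is longer than that of Pira2, 2526 against 2043 bases. Its 77.2%, 1950 same bases over 2527 columns, therefore counts the extra length as difference. Lilr4b was 86.5% identical to Lilrb4a on the same measure. Of all 50-base windows of the annotated transcripts, 94.0% of those of Pira2 were also found in another gene, and so were 100% of those in its last 500 bases. For Pirb the share was 37.3% over the transcript and 0.887% in its last 500 bases. All windows of Lilrb4a were shared with an annotated gene that overlaps it, and none of Sirpa, Cd47 or Siglec1 was shared. The counts of Pira2 and Lilrb4a are therefore uncertain as to which annotated gene gave the RNA.

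Promoters are shown for the 2 PIR members, from RefSeq on GRCm38.p6, as 250 bases before and 50 after the annotated start. Capitals mark the purine box GAGGAA or its complement TTCCTC, a motif that the factor PU.1 can bind. Pira2 is read from chr7:3845002-3845301 and Pirb from chr7:3720333-3720632, both on the minus strand.
Pira2: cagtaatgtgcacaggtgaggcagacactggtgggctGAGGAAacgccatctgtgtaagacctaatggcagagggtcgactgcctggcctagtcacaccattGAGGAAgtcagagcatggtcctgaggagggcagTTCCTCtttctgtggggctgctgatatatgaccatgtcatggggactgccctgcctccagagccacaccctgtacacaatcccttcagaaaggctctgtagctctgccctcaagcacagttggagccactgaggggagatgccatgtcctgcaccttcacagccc
Pirb: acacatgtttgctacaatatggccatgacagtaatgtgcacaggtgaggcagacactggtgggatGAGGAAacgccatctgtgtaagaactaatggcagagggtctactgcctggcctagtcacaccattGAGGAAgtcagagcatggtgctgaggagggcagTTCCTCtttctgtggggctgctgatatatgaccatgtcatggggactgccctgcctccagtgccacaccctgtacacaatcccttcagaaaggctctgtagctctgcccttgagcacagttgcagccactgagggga

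Each promoter held 3 such boxes, 2 promoters of Cd47 held none, and 28.3% of all 32851 promoters of this length held at least 1 on either strand. The aligned promoters were 80.5% identical, with 264 same bases over 328 columns, gaps included. The boxes lie at different distances from the 2 annotated starts, so the windows are offset and their unmatched ends lower this value. Matches are letters in a window and were not tested as binding sites.

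Across cell classes of the joint table, 5 of the 6 genes were highest in myeloid cells and Cd47 was found in every class. Levels are given as the UMIs of a gene per 1000000 UMIs of the class (CPM), and 8 classes of the LLC and 13 of the B16 library had the minimum of 50 cells. Levels of different genes were not compared with each other.

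Sirpa reached 317 CPM (313 to 321) in LLC monocytes and macrophages and 356 CPM (350 to 363) in the B16 class. Neutrophil-like monocytes, which reached the minimum number of cells in LLC alone, had 274 CPM there. A separate annotation of the B16 library named 28 cells as neutrophil-like monocytes, below that minimum. Sirpa stood at 406 CPM (323 to 504) in them, against 347 CPM in monocytes and macrophages of that annotation. LLC cDC2, a class of conventional dendritic cells known to carry SIRPα, had 185 CPM. In B16, cDC2 had 132 CPM and plasmacytoid dendritic cells (pDC) had 141 CPM. The cDC1 class, known to lack SIRPα, stood at 25.7 CPM in B16. Naive T cells were lowest, at 18.8 CPM in LLC and 7.93 in B16.

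Cd47 encodes the ligand of SIRPα and had the flattest profile. Its highest level in LLC was 732 CPM in migratory dendritic cells (migDC), against 340 CPM in monocytes and macrophages, the lowest class, a ratio of 2.15 (1.95 to 2.37). In B16 it reached 1196 CPM in pDC, 700 CPM in migDC and 628 CPM in NK cells, and was lowest in plasma cells at 197 CPM. The label of a myeloid receptor thus did not describe Cd47, which was found in lymphoid and myeloid classes. Neighbouring classes in the middle of the B16 order, from Tregs-1 (477 CPM) to CD8 T cells (391 CPM), did not each differ from the next beyond their counting intervals.

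The activating member Pira2 was highest in LLC monocytes and macrophages, at 339 CPM (335 to 343), followed by neutrophil-like monocytes (303 CPM) and cDC2 (279 CPM). In B16 it was highest in neutrophils, at 89.6 CPM (65.9 to 119), with cDC2 at 61.7, migDC at 57.1 and monocytes and macrophages at 46.5 CPM. The order of classes therefore differed between the libraries, with monocytes and macrophages first in LLC and after 3 other classes in B16. Intervals of the B16 classes next to each other from cDC2 to Tregs-2 overlapped.

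The inhibitory member Pirb was led by neutrophils in B16, at 381 CPM (330 to 438), against 164 CPM in monocytes and macrophages. In LLC, neutrophil-like monocytes (222 CPM), neutrophils (205 CPM), monocytes and macrophages (201 CPM) and cDC2 (188 CPM) each stood within counting error of the next. Naive T cells had 8.35 CPM in LLC and 5.62 in B16.

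Lilrb4a was highest in neutrophils of both libraries, at 520 CPM (496 to 544) in LLC and 303 CPM (258 to 354) in B16. The level in monocytes and macrophages was 81.5 CPM in LLC and 62.5 in B16, and cDC2 had 116 CPM in LLC and 60.1 in B16. The single UMI in B16 plasma cells (0.697 CPM) was the lowest level.

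Siglec1 UMIs were found mainly in monocytes and macrophages. Monocytes and macrophages had 13.9 CPM (13.1 to 14.8) in LLC and 18.3 CPM (16.9 to 19.8) in B16. Neutrophils had 1.45 CPM in LLC and 0 UMIs in B16, and no UMI was found in B cells of either library or in B16 NK cells. In B16 only Tregs-2, at 7.30 CPM, stood above 2 CPM outside monocytes and macrophages.

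The B16 cluster named Tregs-2 stood apart from Tregs-1 in Sirpa, although its 10 leading genes included T cell genes such as Foxp3 and Ctla4. Sirpa stood at 221 CPM in its 165 cells, against 17.6 CPM in the 546 cells of Tregs-1, and its median depth was 14689 against 4475 UMIs. The part of doublets in these levels was not tested.

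**Figure D1:**
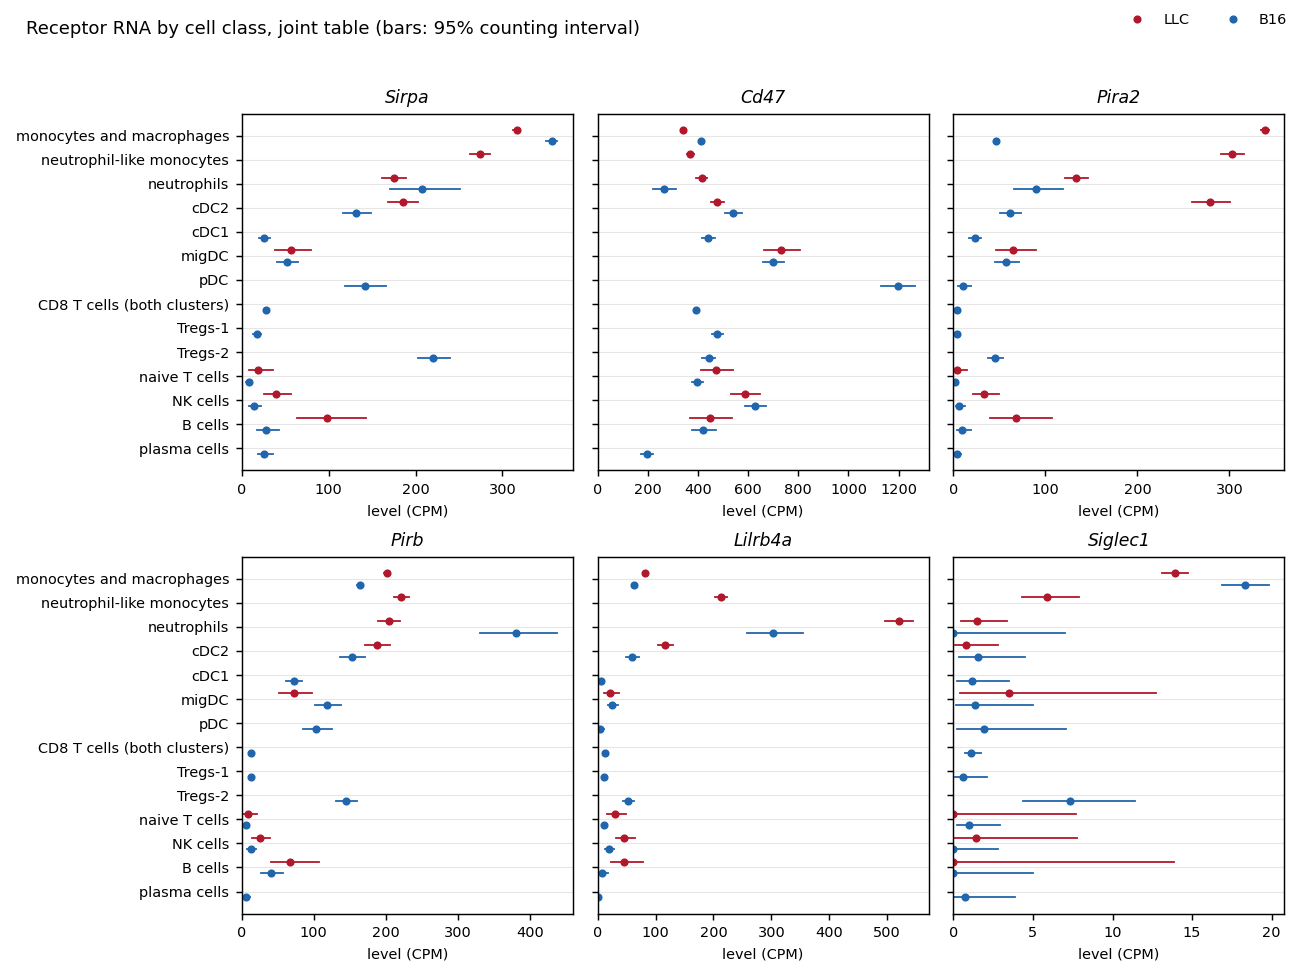
Level of each gene, in UMIs per 1000000 UMIs of the class, by cell class for LLC (red) and B16 (blue), for classes with at least 50 cells; bars are exact 95% Poisson intervals for counting error. Sirpa and Siglec1 peak in monocytes and macrophages, Lilrb4a in neutrophils, and Cd47 is present in every class.

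LLC was set against B16 within the 7 classes that had at least 50 cells in both libraries, with a gene counted as higher or lower at 1.5-fold where both sides together held 20 UMIs or more. In monocytes and macrophages (9194 LLC and 2742 B16 cells), 1 of 6 members was higher and none was lower, where 11.9% of 11261 genes were higher and 11.9% lower. The 1 was Pira2, at 339 CPM in LLC and 46.5 in B16, a ratio of 7.27 (6.91 to 7.66). The ratios of the other 5 were 0.888 for Sirpa, 0.824 for Cd47, 1.23 for Pirb, 1.30 for Lilrb4a and 0.760 for Siglec1. The median ratio over all measured genes was 1.02.

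That class joined 10 deposited clusters, and in 4 of them (Imm TAM-1, Imm TAM-2, Imm TAM-4 and TAM Lyve1) platelet or red cell genes outnumbered monocyte and macrophage markers among the 10 leading genes. The margin was small, 1 gene against 0 in Imm TAM-1, Imm TAM-2 and TAM Lyve1, and 2 against 0 in Imm TAM-4. In each of the 10 clusters at least 7 of 9 fixed markers of monocytes and macrophages were higher than in cells outside the class. Summed platelet markers (Pf4 and Ppbp) stood at 1837 CPM in LLC and 508 in B16 monocytes and macrophages, and summed red cell markers at 61.4 and 146 CPM. The 6 neutrophil markers summed to 851 CPM in LLC and 326 in B16. Lymphoid markers were higher in B16: T cell markers summed to 3.86 CPM in LLC and 65.5 in B16, B cell markers to 5.27 and 55.4 CPM, and NK cell markers to 1.70 and 18.7 CPM. Without the 4 clusters, 3826 LLC and 2388 B16 cells were left, and the ratio of Pira2 was 6.73. Siglec1 changed direction, to a ratio of 1.20.

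The 2 libraries were also made up differently. Imm TAM-4 was 29.1%, TAM-1 17.6% and Imm TAM-1 16.6% of LLC monocytes and macrophages, whereas TAM-3 was 47.1% and Imm TAM-3 23.2% of those of B16. Clusters were therefore compared one by one, for the 4 with at least 50 cells on both sides.

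Pira2 was higher in all 4 clusters. It stood at 314 CPM in LLC and 66.4 in B16 cells of the cluster Monocytes, a ratio of 4.73. The values were 199 and 63.9 CPM in Imm TAM-2 (3.11-fold), 340 and 67.8 CPM in Imm TAM-3 (5.01-fold), and 425 and 82.0 CPM in Imm TAM-4 (5.19-fold). Pira2 was the only member past 1.5-fold in Monocytes (1 of 5 measured, where 8.27% of genes were higher), Imm TAM-2 (1 of 6, where 20.7% were higher) and Imm TAM-4 (1 of 6, where 23.0% were higher).

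In Imm TAM-3, 3 of 6 members were higher, where 11.6% of genes were. Beside Pira2 these were Siglec1, at 35.2 CPM in LLC and 14.5 in B16 (2.43-fold, 1.80 to 3.27), and Cd47, at 620 and 413 CPM, where the interval of the ratio (1.41 to 1.60) held the limit of the size rule. In TAM Lyve1 Siglec1 stood at 33.3 CPM in 23 LLC cells and 91.0 CPM in 42 B16 cells, too few for a comparison.

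In neutrophils (1955 LLC and 299 B16 cells) the receptors split. Lilrb4a was 520 CPM in LLC and 303 in B16 (1.71-fold, 1.46 to 2.03) and Cd47 was 415 and 263 CPM (1.58-fold, 1.32 to 1.89). These 2 of 5 measured members were higher, where 15.3% of genes were. Pirb was lower, at 205 CPM in LLC and 381 in B16, a ratio of 0.537 (0.458 to 0.631), where 30.9% of genes were lower. Pira2, at 134 and 89.6 CPM, had a ratio of 1.49 (1.10 to 2.06), just inside the size rule.

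The class joined 2 clusters in different proportions, with 813 LLC and 214 B16 cells in Neutrophil-1 and 1142 LLC and 85 B16 cells in Neutrophil-2. Pira2 passed the rule within each, at 1.76-fold (1.27 to 2.50) in Neutrophil-1 and 2.92-fold (1.23 to 9.08, from 5 B16 UMIs) in Neutrophil-2. Lilrb4a did too, at 1.66-fold and 1.76-fold. Pirb had a ratio of 0.665 (0.559 to 0.795) in Neutrophil-1, at the limit of the rule, and 1.26 (0.760 to 2.23) in Neutrophil-2, so its lower level in the class was not found in both clusters. Cd47 passed in Neutrophil-2 (1.65) and not in Neutrophil-1 (1.30). Sirpa also passed in Neutrophil-2, at 1.61 from 15 B16 UMIs, with an interval (0.962 to 2.91) that holds 1, and not in Neutrophil-1 (0.818). The share of all genes past the rule was not counted within these clusters, so these calls have no background beside them.

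In cDC2 (314 LLC and 166 B16 cells), 2 of 5 measured members were higher, where 16.3% of genes were. Pira2 stood at 279 CPM in LLC and 61.7 in B16 (4.53-fold, 3.73 to 5.54) and Lilrb4a at 116 and 60.1 CPM (1.94-fold, 1.56 to 2.42). In migDC (88 and 156 cells) the only member past the rule was Pirb, which was lower, at 72.1 CPM in LLC and 118 in B16 (0.609, 0.422 to 0.861), where 15.0% of genes were lower. Pira2 did not pass the rule there, at 65.1 and 57.1 CPM (1.14-fold).

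Lymphoid classes had low levels of the receptors, and these were often higher in LLC. In NK cells 4 of 5 measured members were higher (9.31% of genes), in B cells 3 of 4 (13.8%) and in naive T cells 2 of 4 (15.5%). For 3 of these 9 the interval of the ratio holds 1: Pirb in NK cells (0.988 to 4.30) and B cells (0.876 to 3.09) and Sirpa in naive T cells (0.969 to 5.28). Pira2 was 67.6 CPM in 102 LLC B cells and 9.45 CPM in 220 B16 B cells, and 33.4 and 6.11 CPM in NK cells. In the same lymphoid classes Cd47, which lymphocytes express themselves, did not pass the rule. Monocytes and macrophages were 9194 of 13021 LLC cells and 2742 of 6870 B16 cells, and the part of free macrophage RNA or of doublets in these levels was not tested.

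Shares of cells with at least 1 UMI depend on depth, so they were also taken after thinning every cell to 2000 UMIs. In monocytes and macrophages, whose median depths were 6944 UMIs in LLC and 10188 in B16, 80.6% of LLC and 35.5% of B16 cells had a Pira2 UMI. After thinning the shares were 46.2% and 9.43%, with 133 LLC and 39 B16 cells left out as too shallow. In naive T cells, which should lack the gene, 1.08% of LLC and 0.54% of B16 cells had one, at median depths of 2455 and 3736 UMIs. The Siglec1 share was 8.85% in LLC and 16.05% in B16 before thinning and 2.21% and 3.00% after it. In naive T cells no cell in LLC (interval up to 1.97%) and 0.40% in B16 had a Siglec1 UMI before thinning.

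In the monocyte and macrophage table, the CITE-seq LLC library gave a second LLC value for each subset. Over all cells Sirpa stood at 312 CPM in LLC, 338 in CITE-seq LLC and 361 in B16. Cd47 stood at 352, 325 and 412 CPM in the same order of libraries, Pirb at 212, 208 and 178 CPM, Lilrb4a at 87.0, 68.8 and 70.3 CPM, and Siglec1 at 13.1, 15.5 and 16.7 CPM. None of these 5 genes differed by 1.5-fold between any 2 libraries. Pira2 did, at 353 CPM in LLC, 106 in CITE-seq LLC and 52.4 in B16.

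**Figure D2:**
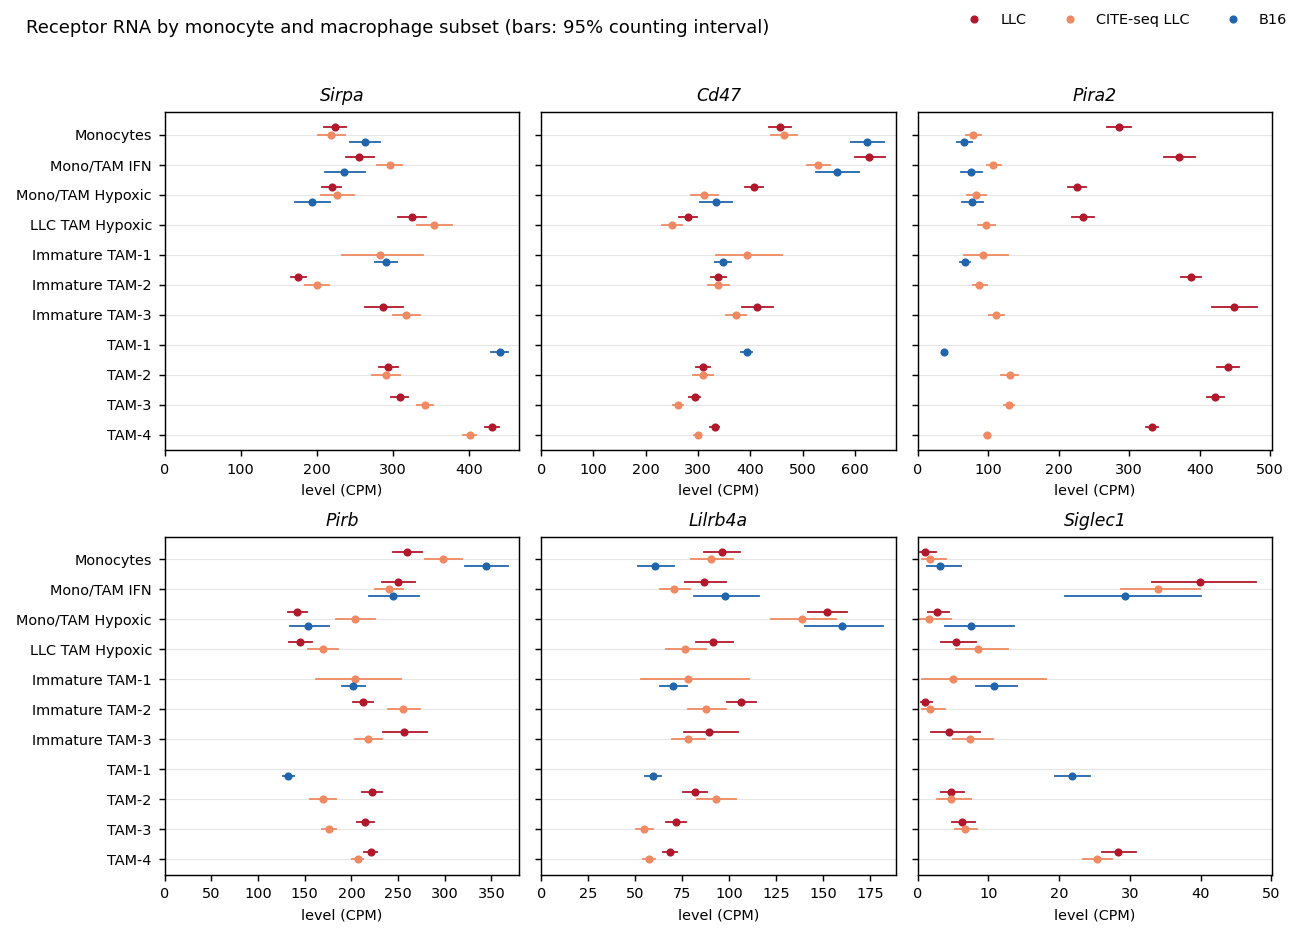
Level of each gene, in UMIs per 1000000 UMIs of the subset, in the subsets of the monocyte and macrophage table for LLC, CITE-seq LLC and B16, for subsets with at least 50 cells; bars are exact 95% Poisson intervals. In the Pira2 panel LLC stands above CITE-seq LLC in each shared subset, and Siglec1 is highest in Mono/TAM IFN in all 3 libraries, in B16 not apart from TAM-1 beyond counting error (1.35-fold, 0.938 to 1.88).

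Among subsets with at least 50 cells, Sirpa was highest in TAM-4 of both LLC libraries, at 430 CPM in LLC and 400 in CITE-seq LLC, and in TAM-1 of B16, at 440 CPM. Monocytes had 223, 219 and 263 CPM in LLC, CITE-seq LLC and B16. The lowest subset was Immature TAM-2 in LLC (175 CPM) and CITE-seq LLC (199.7 CPM), and Mono/TAM Hypoxic in B16 (193 CPM). The ratio of TAM-4 over Monocytes was 1.93 (1.80 to 2.06) in LLC and 1.83 (1.69 to 1.99) in CITE-seq LLC, and that of TAM-1 over Monocytes in B16 was 1.67 (1.55 to 1.82).

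Cd47 and Pirb were higher in Monocytes than in most macrophage subsets. Cd47 was 457, 464 and 624 CPM in Monocytes of LLC, CITE-seq LLC and B16, and 628, 530 and 566 CPM in Mono/TAM IFN, the subset the authors named for interferon. It was lowest in LLC TAM Hypoxic in LLC and CITE-seq LLC, at 280.0 and 249.9 CPM, and in Mono/TAM Hypoxic in B16, at 334 CPM. Pirb was highest in Monocytes in each library, at 259.7, 298 and 344 CPM. In LLC Pirb there was not apart from Immature TAM-3 beyond counting error (1.01-fold, 0.906 to 1.13). In B16 it was lowest in TAM-1, at 132 CPM, a ratio over Monocytes of 0.385 (0.355 to 0.418).

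Lilrb4a stood out in Mono/TAM Hypoxic, with 152 CPM in LLC, 139 in CITE-seq LLC and 160 in B16. Against Monocytes of the same library that was 1.59-fold (1.40 to 1.79), 1.53-fold (1.29 to 1.83) and 2.64-fold (2.15 to 3.26). It was the highest subset in all 3 libraries, and the next subset differed beyond counting error in each.

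Siglec1 marked Mono/TAM IFN (39.9, 34.0 and 29.3 CPM in LLC, CITE-seq LLC and B16), TAM-4 of the LLC libraries (28.4 and 25.4 CPM) and TAM-1 of B16 (21.8 CPM). Monocytes had 0.983, 1.71 and 3.13 CPM, so the ratio of Mono/TAM IFN over Monocytes was 40.6 (15.5 to 152) in LLC, 19.9 (8.32 to 62.1) in CITE-seq LLC and 9.37 (4.32 to 23.2) in B16. Siglec1 UMIs in Monocytes were few, 4 in LLC and 8 in B16.

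Pira2 was highest in Immature TAM-3, TAM-2 and TAM-3 of LLC, at 449, 440 and 422 CPM, and in TAM-2 and TAM-3 of CITE-seq LLC, at 130 CPM each. Monocytes had 285 CPM in LLC, 78.5 in CITE-seq LLC and 65.7 in B16. In B16 the lowest subset was TAM-1, at 37.0 CPM, a ratio over Monocytes of 0.563 (0.472 to 0.675). TAM-2 and TAM-3 were thus among the 3 highest subsets of both LLC libraries at different levels, while in B16 TAM-1 stood below Monocytes.

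Set against B16, LLC had 1 of 6 members higher over all cells of this table (11.8% of genes) and CITE-seq LLC also 1 of 6 (9.93% of genes), Pira2 in each. None was lower. The Pira2 ratio over B16 was 6.73 (6.37 to 7.13) for LLC and 2.01 (1.90 to 2.14) for CITE-seq LLC. Of the genes measured, 0.625% had a larger ratio for LLC and 4.37% for CITE-seq LLC. Both ratios rest on the same B16 library.

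Within subsets the CITE-seq LLC difference was smaller. In Monocytes the Pira2 ratio over B16 was 4.34 (3.69 to 5.13) for LLC and 1.19 (0.975 to 1.47) for CITE-seq LLC. In Mono/TAM IFN it was 4.93 (4.02 to 6.11) for LLC and 1.43 (1.15 to 1.79) for CITE-seq LLC, and in Mono/TAM Hypoxic 2.94 (2.42 to 3.61) and 1.08 (0.839 to 1.39). Pira2 thus passed the 1.5-fold rule in each of these subsets for LLC and in none for CITE-seq LLC, so the height of Pira2 in LLC over B16 within a subset rested on 1 of the 2 LLC libraries.

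The other members seldom passed the rule within subsets. In Monocytes, 2 of 5 measured members were higher in LLC than in B16 (7.52% of genes), Pira2 and Lilrb4a. Lilrb4a stood there at 96.1 CPM in LLC, 90.5 in CITE-seq LLC and 60.6 in B16, ratios over B16 of 1.58 (1.31 to 1.92) and 1.49. In Mono/TAM IFN 1 of 6 was higher (22.8% of genes), and in Mono/TAM Hypoxic 1 of 6 was higher (18.5%) and 1 lower (12.6%). The lower one was Siglec1, from 15 LLC and 11 B16 UMIs (0.357, 0.153 to 0.860). For CITE-seq LLC over B16, no measured member passed in Monocytes, Mono/TAM IFN or Mono/TAM Hypoxic (7.13%, 26.0% and 15.3% of genes were higher), and 1 of 6 was lower in Immature TAM-1, where 18.9% of genes were lower. It was Siglec1, from 2 CITE-seq LLC and 57 B16 UMIs, with a ratio of 0.465 whose interval (0.0550 to 1.76) holds 1.

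**Figure D3:**
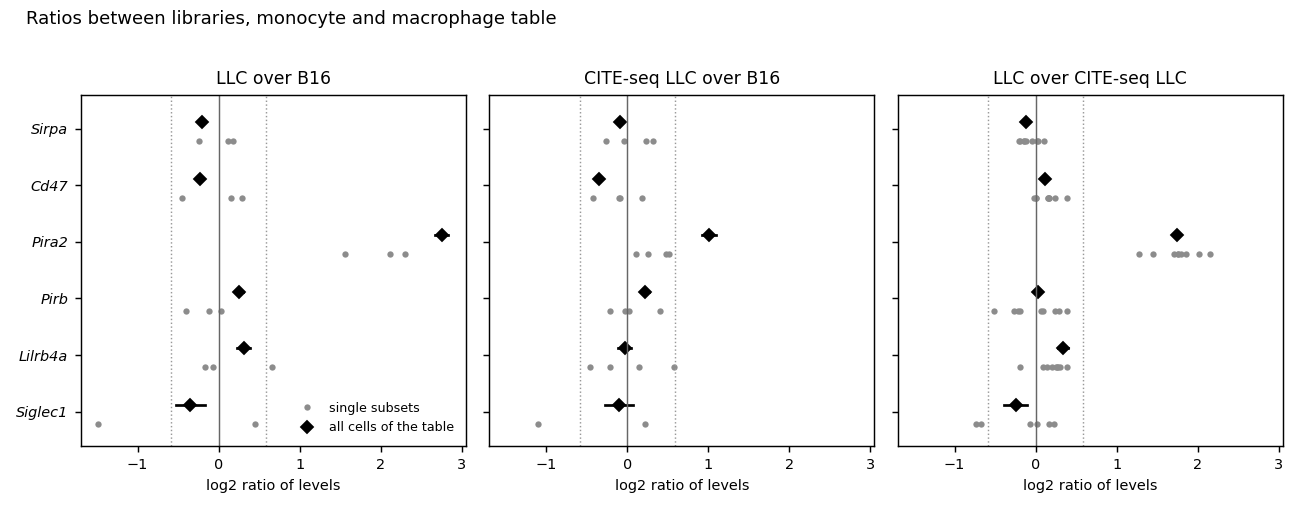
Log2 ratio of each gene in 3 comparisons of the monocyte and macrophage table, LLC over B16, CITE-seq LLC over B16 and LLC over CITE-seq LLC; diamonds are all cells with exact 95% intervals, grey points single subsets, dotted lines 1.5-fold. Pira2 lies right of the 1.5-fold line over all cells in each panel, and the other 5 diamonds lie between the lines.

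The 2 LLC libraries were set against each other to see how far 2 samples of 1 tumour model differ. Over all cells 1 of 6 members was higher in LLC than in CITE-seq LLC, where 2.81% of 11307 genes were, and none was lower. Pira2 was the one, at 3.34-fold (3.25 to 3.44), and 29 genes (0.256%) had a larger ratio. Pira2 was higher in all 9 subsets compared. The ratio was 4.42 in Immature TAM-2 (5.22% of genes were higher), 4.03 in Immature TAM-3 (6.0%), 3.63 in Monocytes (5.07%), 3.45 in Mono/TAM IFN (4.17%) and 3.38 in TAM-2 (6.19%). It was 3.37 in TAM-4 (2.87%), 3.26 in TAM-3 (5.26%), 2.73 in Mono/TAM Hypoxic (10.4%) and 2.42 in LLC TAM Hypoxic (5.87%). Siglec1 was lower in Immature TAM-3 (0.602) and LLC TAM Hypoxic (0.627), with intervals that hold 1, where 8.31% and 5.2% of genes were lower. Pirb differed by 1.02-fold (0.996 to 1.05), an interval that holds 1. Summed platelet markers stood at 1850 CPM in LLC and 1160 in CITE-seq LLC, and their part in the result was not tested. These libraries differ in the strain of the mice as labelled and in the kind of library, which cannot be told apart.

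Near copies of Pira2 were read in the same libraries, since reads could be split among them. Lilra6, one of its near copies, had 37.8 CPM in LLC, 20.7 in CITE-seq LLC and 6.66 in B16. Gm15448 had 6.74, 3.43 and 2.58 CPM and Gm14548 had 14.38, 16.04 and 7.14 CPM in the same order. LLC over CITE-seq LLC was thus 1.82-fold for Lilra6, 1.96-fold for Gm15448 and 0.897-fold for Gm14548. Summed with these 3 near copies, Pira2 had a ratio of LLC over B16 of 6.49 in monocytes and macrophages of the joint table, against 7.27 alone. Gm15922, which shared the most 50-base windows with Pira2 (83.7%), was not analysed here. The near copy of Lilrb4a, Lilr4b, which encodes gp49A, had 218, 174 and 231 CPM.

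Genes around the PIR cluster on chromosome 7 were read for comparison. Within 250 kb of the PIR genes, 3 of the 5 measured PIR rows were higher in LLC than in CITE-seq LLC and none was lower, with ratios from 0.897 to 3.34. Near copies have sequence in common, so these rows may share reads and are not separate observations. Of 15 other measured genes none was higher and 4 were lower: Ndufa3 (0.661), Leng1 (0.647), Lair1 (0.565) and Cdc42ep5 (0.633). Only the interval of Lair1 (0.546 to 0.585) lay wholly past the size rule. Those of Ndufa3 (0.639 to 0.685), Leng1 (0.583 to 0.718) and Cdc42ep5 (0.399 to 0.992) held its limit. Cdc42ep5 stood at only 0.566 CPM in LLC and 0.894 in CITE-seq LLC. Of all 11307 genes 2.81% were higher and 3.03% were lower. Lair1, whose product is an inhibitory collagen receptor, was thus lower in LLC while Pira2 was higher. Neighbours were chosen by distance alone.

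**Figure D4:**
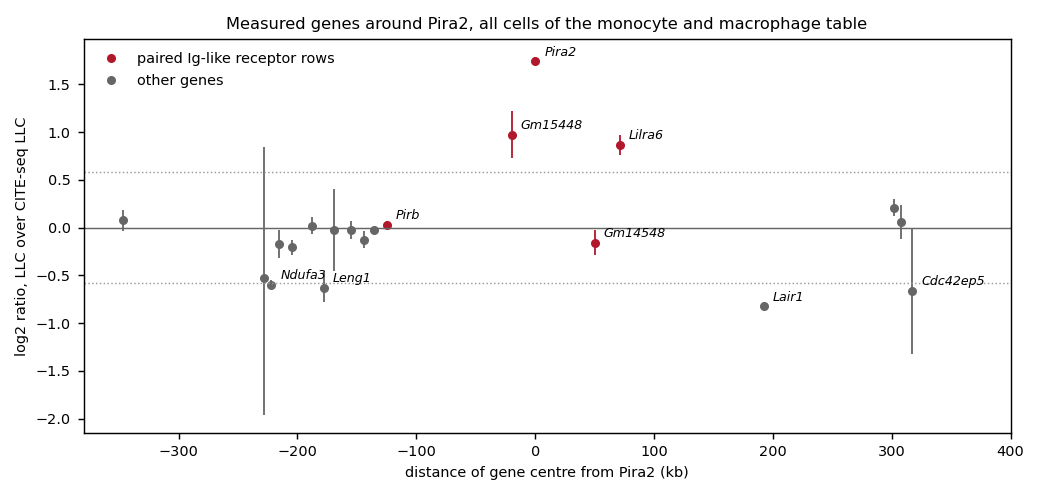
Log2 ratio of LLC over CITE-seq LLC in the monocyte and macrophage table for measured genes near Pira2, against distance from Pira2 in kb; PIR family genes are red, with exact 95% intervals. Pira2 (3.34-fold) stands above all neighbours, and 4 genes outside the family lie below the lower 1.5-fold line.

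Surface protein was read in the CITE-seq LLC library with 172 tags, of which 9 were isotype controls. Tags named CD172a (SIRPα), PIRA-PIRB (an antibody to both receptors) and CD169 matched the members, and none was named for CD47 or gp49. The 10131 cells held 7093585 tag UMIs, with a median of 538 per cell. Per cell, CD172a averaged 3.55, PIRA-PIRB 29.1 and CD169 0.913 tag UMIs, against 1.49 for the sum of the 9 isotype tags. At least 1 UMI was found in 88.6% of cells for CD172a, 99.9% for PIRA-PIRB and 37.4% for CD169. Over all cells, CD169 thus stood below the sum of the 9 isotype tags but above each of them alone. The highest single isotype tag was IgG1-Rat-l, at 0.890 per cell, with 20.7% of its UMIs in 1 cell.

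The CD169 tag was highest in TAM-4, the subset with the second highest level of Siglec1 RNA. It made up 2.27 per 1000 tag UMIs in TAM-4, with at least 1 UMI in 72.8% of cells, and in Monocytes 0.324 per 1000, with at least 1 UMI in 9.46%. The ratio of TAM-4 over Monocytes was 6.99 (5.69 to 8.68), and per cell 20.7. The mean of 2.28 per cell in TAM-4 stood above the isotype sum of that subset, 1.62. Mono/TAM IFN, the subset with the highest Siglec1 RNA, had 1.23 per 1000, close to the 1.22 of LLC TAM Hypoxic. Within TAM-4 the tag stood at 2.80 per 1000 in the 457 cells with a Siglec1 UMI and 2.11 in the 2149 without. Within Mono/TAM IFN the values were 2.14 in 113 cells with a UMI and 1.02 in 745 without. Cells with a Siglec1 UMI were also deeper. Their median RNA depth was 9158 against 7088 UMIs in TAM-4 and 6528 against 3706 in Mono/TAM IFN. Their median tag UMIs were 938 against 730 and 809 against 484, and the part of depth was not tested.

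The order of the other 2 tags depended on the scale. Per 1000 tag UMIs, CD172a stood at 5.37 in TAM-4 and was highest in Monocytes, at 7.36 (7.05 to 7.68), but per cell TAM-4 had 5.40 and Monocytes had 2.50 tag UMIs. PIRA-PIRB was 33.2 per 1000 in TAM-4 and 68.6 in Monocytes, close to the 68.5 of Immature TAM-2, and per cell 33.4 in TAM-4 and 23.3 in Monocytes. Per cell both tags were highest in Immature TAM-3, at 5.51 for CD172a, not apart from TAM-4 beyond counting error, and 55.4 for PIRA-PIRB. The isotype sum of Immature TAM-3 was 8.99 per cell, above its CD172a, and 5.18 without 1 cell that held 1871 isotype UMIs, below its CD172a. All tags together averaged 1006 per cell in TAM-4 and 340 in Monocytes, and these totals are what divides the 2 scales.

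**Figure D5:**
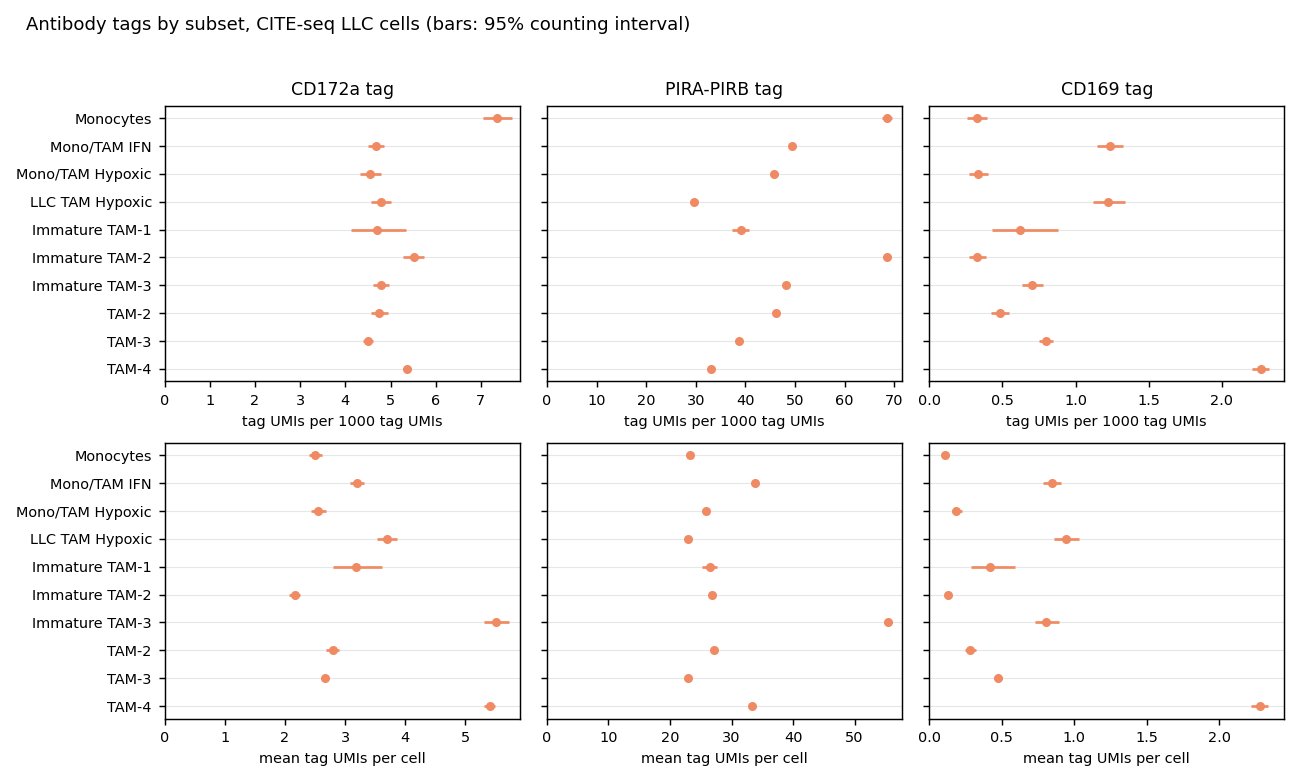
Antibody tags CD172a, PIRA-PIRB and CD169 in 10 subsets of the CITE-seq LLC library, as tag UMIs per 1000 tag UMIs of the subset (top) and as mean tag UMIs per cell (bottom), with exact 95% Poisson intervals. CD169 is highest in TAM-4 on both scales, while Monocytes lead CD172a, and Monocytes and Immature TAM-2 lead PIRA-PIRB, per 1000 tag UMIs and not per cell.

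Over the 10 subsets, which share 1 library, the correlation of tag and RNA is given as a description. Per 1000 tag UMIs, Pearson's r was 0.841 for PIRA-PIRB with Pirb and −0.381 with Pira2, 0.781 for CD169 with Siglec1 (Spearman's rho 0.939), and −0.385 for CD172a with Sirpa. Per cell, the last was 0.718. The PIRA-PIRB tag therefore varied among subsets like Pirb rather than like Pira2 on the first scale. Per cell its Pearson's r was 0.0782 with Pirb and 0.203 with Pira2, and Spearman's rho was 0.406 and 0.370.

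The genes whose levels were most like each member's were found over 21 class and library units, among 5203 genes, by the correlation of log2(CPM + 1). Units share libraries and depth, so these values are descriptions. Sirpa was closest to Sirpb1c (r = 0.936), a related receptor gene, Bach1 (0.933) and Csf1r (0.928), the receptor of macrophage growth factors. Pirb was closest to Spi1 (0.970), which encodes PU.1, Atp6v0d1 (0.970) and Prkcd (0.964). Pira2 was closest to App (0.934), Csf2ra (0.905) and Myadm (0.904).

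Lilrb4a was closest to its near copy Lilr4b (0.966), Rybp (0.944) and the chemokine receptor Ccr1 (0.931). Siglec1 was closest to the complement genes C1qb (0.884) and C1qc (0.882) and to Ms4a7 (0.878). Cd47 was closest to Nfkb1 (0.790), Tsc22d1 (0.784) and Mtmr1 (0.784). Among members, Pirb and Sirpa (0.901) and Pira2 and Pirb (0.888) were most alike, and Cd47 had values between −0.116 and 0.0781 with the other 5.

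Lists of genes that act with these receptors were counted in monocytes and macrophages, 88 measured genes in all, with LLC over B16 in the joint table first and CITE-seq LLC over B16 in the monocyte and macrophage table beside it. Over all 88, 22 (25.0%) were higher and 30 (34.1%) lower in LLC than in B16, where 11.9% of all genes were higher and 11.9% lower, with a median log2 ratio of 0.02 over all genes. Of 87 in the second comparison, 21 were higher and 25 lower.

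In the SIRPA and CD47 axis, 4 of 16 measured genes were higher and 4 lower, with a median log2 ratio of −0.00, and for CITE-seq LLC 3 were higher and 3 lower. Thbs1, which encodes the CD47 ligand thrombospondin 1, stood at 1722 CPM in LLC and 224 in B16 (7.67-fold, and 2.77-fold for CITE-seq LLC). Lrp1, a phagocytic receptor, was 2.03-fold and 1.90-fold higher, and Itgam, the integrin chain CD11b, 2.38-fold and 2.05-fold.

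Of 9 measured paired immunoglobulin-like and leukocyte immunoglobulin-like receptors beside the members, 5 were higher and 2 lower (median log2 ratio 0.97), and for CITE-seq LLC 5 were higher and 1 lower. Among those higher in the joint table were the near copies of Pira2, Lilra6 (6.19-fold), Gm15448 (2.72-fold) and Gm14548 (2.20-fold). They may share reads with Pira2, so their rows are not separate observations. The paired receptors Pilra (1.99-fold and 2.17-fold) and Pilrb2 (1.96-fold and 2.18-fold) were higher in both LLC libraries. Lair1 was lower, at 85.8 CPM in LLC and 190 in B16, a ratio of 0.450, and 0.786 for CITE-seq LLC, which is inside the rule.

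The 7 measured ligands of PIR-B and gp49B moved both ways, with 2 higher and 3 lower (median −0.51), and for CITE-seq LLC 2 higher and 4 lower. B2m, the shared chain of MHC class I, stood at 1739 CPM in LLC and 3747 in B16 (0.464, and 0.452 for CITE-seq LLC), and the class I gene H2-Q7 at 64.7 and 199 CPM (0.324 and 0.335). Fn1, which encodes fibronectin, stood at 2297 and 202 CPM, 11.4-fold and 8.14-fold higher. The 13 measured sialic acid lectins and genes of their ligands had 4 higher and 6 lower (median −0.07), and for CITE-seq LLC 4 higher and 5 lower. Of these Cd33, a sialic acid lectin, was 2.54-fold and 2.47-fold higher, and the sialidase gene Neu1 did not pass the rule, with ratios of 1.09 and 1.08.

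Of 16 other inhibitory myeloid receptors, 2 were higher and 9 lower (median −0.82), and for CITE-seq LLC 1 was higher and 8 lower (median −0.64). Fcgr2b, the inhibitory IgG receptor, was 2.33-fold and 1.51-fold higher. Clec12a stood at 83.4 CPM in LLC and 294 in B16 (0.284 and 0.246) and Cd72 at 122 and 471 CPM (0.259 and 0.312). The members with ITIMs, Sirpa, Pirb and Lilrb4a, stayed within 1.5-fold in the same cells. Lymphoid markers were higher in the B16 class, and the part of lymphoid RNA in the counts of this list was not tested.

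Downstream, a list of phosphatases, Src family and other kinases, and adaptors such as Dok2 was counted. Of its 13 genes 2 were higher and 1 lower (median −0.05), with the same counts for CITE-seq LLC. Fgr and Dok2 were higher (1.68-fold and 1.93-fold, and 1.76-fold and 2.04-fold for CITE-seq LLC). Of 16 activating adaptors and phagocytic receptors, 4 were higher and 5 lower (median 0.09), and of 15 for CITE-seq LLC 4 were higher and 3 lower. Trem1, an activating receptor, was 6.95-fold and 4.06-fold higher. Fcgr4, an activating IgG receptor, stood at 91.1 CPM in LLC and 598 in B16 (0.152 and 0.141). Slamf7, a receptor in phagocytosis, stood at 1.57 and 135 CPM (0.0116 and 0.100). For Slamf7 the LLC libraries thus differed, and the part of the floxed F11r genotype of the LLC mice in these list ratios was not tested.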

How the data were processed

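Starting points were UMI counts per gene and cell, and antibody tag counts per cell, as deposited by the authors with cell names. Cell Ranger and the mm10 build are named in the submitters' processing notes. Their versions, the filters on cells, any sorting and the clustering are not given in any source used here. Per the labels, the tag sample has no file of its own and its counts are linked to the CITE-seq RNA cells.

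Members and lists were chosen with earlier results of these data known. UMIs were summed per library and class or subset and divided by all UMIs of that unit (CPM), with exact Poisson 95% intervals. Ratios were taken between such sums, with exact conditional binomial intervals at 95%, and shares of cells were checked with exact Clopper-Pearson intervals. A gene was measured with at least 20 UMIs over both sides, a unit compared with at least 50 cells in both libraries, and a gene called higher or lower at 1.5-fold, a rule of size. Cells of 1 pool are not replicates, so no test was made.

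Clusters were put into classes by their deposited names. Monocyte and macrophage clusters formed 1 class, checked against markers, and neutrophil-like monocytes stayed apart. From each list up to 3 genes were named, those whose interval bound lay farthest from a ratio of 1 among genes of at least 50 CPM in either library. A gene picked by this rule is not reported here. For each member the 3 most alike genes were named, and members could be among them. Alternatives were per-cell means, thinning to 2000 UMIs, leaving out the 6% of cells with the highest Scrublet doublet scores, other thresholds, equal weights for clusters and another B16 annotation. Tools were Python 3.11.15, numpy 2.4.6, pandas 2.3.3, scipy 1.17.1, scanpy 1.11.5, matplotlib 3.10.9 and biopython 1.88. Ratio and interval code was tested on simulated data.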

Additional observations from a re-analysis of the deposited data

How the results depend on the processing

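Of 89 alternatives over 26 results, 42 stayed within the interval of the value reported (for list counts, within 1.5 times), 44 moved beyond it, and 3 values that had passed 1.5-fold, all of tags, changed direction; 14 moved by over 1.5-fold. With values inside 1.5-fold counted too, 10 alternatives fell on the other side of a ratio of 1, of which 4 were of tags and 3 of ratios in the joint table. Pira2 in LLC over B16 stayed past 1.5-fold in every alternative run. In monocytes and macrophages of the joint table its ratio was 6.62 as a mean of per-cell CPM, 6.89 after thinning and 5.40 with clusters weighted alike. It was 6.73 without the 4 clusters with more platelet or red cell than own markers among leading genes, and 6.49 with near copies summed. These last 2 alternatives were added after seeing the data. Lilrb4a gave 1.23 per cell, 1.11 with clusters alike and 1.18 without those 4 clusters. Pirb gave 1.09 per cell, 1.12 thinned and 0.938 with clusters alike. Sirpa gave 1.09 with clusters alike, 0.912 with the other B16 annotation and 0.959 without those 4 clusters, and Cd47 gave 0.967 with clusters alike. Siglec1 gave 0.851 thinned and 1.20 without those clusters. Neither Pirb nor Sirpa, Cd47, Lilrb4a or Siglec1 passed 1.5-fold in these alternatives, and the cause of the changes was not tested.

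In the monocyte and macrophage table, CITE-seq LLC in place of LLC gave 0.937 for Sirpa, 0.789 for Cd47, 2.01 for Pira2, 0.978 for Lilrb4a and 0.933 for Siglec1. Per-cell means gave 0.898 for Sirpa, 6.25 for Pira2, 1.06 for Pirb and 1.17 for Lilrb4a. Thinning gave 0.930 for Sirpa, 0.831 for Cd47, 6.28 for Pira2, 1.04 for Pirb and 1.13 for Lilrb4a. TAM-4 over Monocytes was 2.16 per cell against 0.730 per tag UMI for CD172a, 1.43 against 0.484 for PIRA-PIRB, and 20.7 against 6.99 for CD169. CD169 in Immature TAM-3 over Monocytes was 2.17 per tag UMI, but 0.444 over isotype UMIs and 0.771 without the cell with the most, which held 1871 isotype UMIs. List genes higher in LLC numbered 14 at 2-fold, against 22 at 1.5-fold.

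No paired analysis was possible because the labels give no replicate numbers and each group is 1 library. Few UMIs limit Siglec1. Counts of Pira2 cannot be told apart from those of near copies, nor those of Lilrb4a from an annotated gene that overlaps it.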
